A study of Mus musculus with 6 samples.

Results

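The Kelch, Asb and F-box adaptors are proteins that choose the targets of ubiquitin ligases, and their genes were taken as every window of the transcription start site table whose symbol is Klhl, Kbtbd, Asb or Fbxo followed by a number and at most a single letter, apart from Fbxo32 and Fbxo30. The rule found 93 of 49366 windows, 35 of Klhl, 9 of Kbtbd, 18 of Asb and 31 of Fbxo genes. It used no measured value. Another 4 annotated genes that fit it, Fbxo3, Fbxo45, Fbxo48 and Klhl10, had no row and were not analysed here. Open DNA was mapped by ATAC-seq, which uses a transposase to place sequencing adapters where chromatin is accessible, in nuclei sorted from skeletal muscle for PCM1, a protein at the rim of the nucleus in muscle fibres. The 3 LacZ-shRNA samples came from muscles of male C57BL/6J mice, 8 weeks of age, that received an AAV6 vector with a hairpin against a bacterial gene. The 3 Yap-shRNA samples came from the opposite limbs, which received AAV6 with a hairpin against Yap, a transcriptional co-activator of the Hippo pathway. All muscles were taken 28 days after the vectors, and each sample pooled 4 gastrocnemius and 4 tibialis anterior muscles. The labels do not say which animals share a pool, so the p-values measure the spread between these pools. A hairpin acts on RNA, so the depth of knockdown cannot be read from these counts.

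Ubiquitin ligases of the cullin-RING class are built from a cullin scaffold, a RING subunit that brings the ubiquitin-conjugating enzyme, and an exchangeable adaptor that binds the substrate. Klhl and Kbtbd proteins join Cul3 through a BTB domain, and most read substrates with a Kelch propeller. Asb proteins join Cul5 through elongins B and C and a SOCS box, and read substrates with ankyrin repeats. Fbxo proteins join Cul1 through Skp1 and an F-box. Several of these adaptors are used mainly in striated muscle, among them Klhl40, Klhl41 and Kbtbd13, whose human counterparts are mutated in nemaline myopathy, Asb2, which targets filamins, and Fbxo40, which targets the insulin receptor substrate Irs1.

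The windows, 1 kb to each side of every annotated start of a gene, held 3326803 to 10319467 reads per sample, and the peaks held 2588520 to 6871176. LacZ-shRNA replicate 2 was the shallowest in both tables. Where 3 values are given per group, they are in the order of replicates 1 to 3. Levels are given in CPM, read counts scaled to library size with TMM factors, and, between genes, in CPM per kb of window. Of 8 muscle fibre marker genes, 5 had a peak at a start, with a median level of 25.6 CPM per kb in LacZ-shRNA, against medians of 4.51 to 6.42 CPM per kb for satellite cell, fibroblast, endothelial and leukocyte markers, of which 1 of 15 had a peak. The summed level of the 4 fibroblast markers was 104 to 123 CPM in LacZ-shRNA and 121 to 149 CPM in Yap-shRNA, and that of the 3 satellite cell markers 55.7 to 60.04 and 50.4 to 51.8 CPM. No marker window was called at an adjusted p under 0.05. At an unadjusted p under 0.05 in edgeR, 2 of 4 fibroblast and 1 of 4 leukocyte marker windows were higher in Yap-shRNA. Lower were 1 of 3 satellite cell and 1 of 4 endothelial marker windows. Of the 8 muscle fibre markers 0 passed that threshold, and of all windows 4.9%. The part of these other cells in the values below was not tested. Fewer cells of a type and a less open site per cell cannot be told apart in such pools.

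The members fell into 19 muscle-enriched genes, a list drawn from general knowledge, and 74 others, and the letters before their starts are described for each group. Each of the 19 had a peak within 1 kb of a start, against 60 of 74 others. The peak also lay within 1 kb of a start of another gene for 3 of the 19 and for 24 of the 60. RefSeq promoter sequences of GRCm38.p6 were held for 77 of the 93 members, and the 250 bases before each start were searched on both strands. The median ratio of observed to expected CpG was 0.221 in the 22 promoters of 17 muscle-enriched genes, 0.696 in the 86 promoters of 60 others and 0.373 in all 32851 promoters. A match to the MEF2 motif, bound by a family of muscle transcription factors, was found in 40.9% of the muscle-enriched promoters (9 genes), in 0 of 86 promoters of the others and in 2.92% of all promoters. The 9 genes were Asb5, Asb12, Asb14, Asb16, Asb18, Fbxo40, Kbtbd12, Klhl33 and Klhl41. The E-box CAGCTG, a sequence that myogenic factors bind, was in 31.8%, 16.3% and 13.00% of the promoters of muscle-enriched, other and all genes. The CArG box, bound by serum response factor, was in 2 of 22, 0 of 86 and 1.47%. The letters ACATTCC of TEAD, the DNA-binding partner of Yap, were in 0 of 22, 2 of 86 and 3.25%. The AP-1 letters TGANTCA were in 1, 3 and 6.75%, and the glucocorticoid receptor motif in none of the members' promoters and 0.167% of all. A match is a description of the letters, not of a bound site.

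The 6 promoters below belong to the muscle-enriched genes with the highest levels per kb that the promoter table held and whose 250 bases lay almost wholly outside annotated exons. They are shown to place the motifs within open chromatin, since all 250 bases of each lay inside the gene's promoter peak. Their positions in GRCm38 were Asb10 chr5:24540979-24541228 (minus strand), Asb18 chr1:90014667-90014916 (minus strand), Asb16 chr11:102268501-102268750 (plus strand), Kbtbd13 chr9:65391653-65391902 (minus strand), Fbxo40 chr16:36990468-36990717 (minus strand) and Klhl33 chr14:50897484-50897733 (minus strand). Each is written 5′ to 3′ along the gene and ends at the base before the RefSeq start, with matches to the MEF2 motif and to the E-box in capitals.
Asb10: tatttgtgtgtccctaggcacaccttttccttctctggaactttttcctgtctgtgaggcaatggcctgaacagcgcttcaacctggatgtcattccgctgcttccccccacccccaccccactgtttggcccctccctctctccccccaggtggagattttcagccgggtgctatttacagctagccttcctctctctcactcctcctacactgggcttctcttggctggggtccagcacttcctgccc
Asb18: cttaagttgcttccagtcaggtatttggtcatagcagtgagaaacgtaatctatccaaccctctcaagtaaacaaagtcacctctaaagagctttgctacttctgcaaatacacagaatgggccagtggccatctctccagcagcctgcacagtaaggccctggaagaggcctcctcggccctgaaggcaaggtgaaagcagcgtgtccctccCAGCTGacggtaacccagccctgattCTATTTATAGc
Asb16: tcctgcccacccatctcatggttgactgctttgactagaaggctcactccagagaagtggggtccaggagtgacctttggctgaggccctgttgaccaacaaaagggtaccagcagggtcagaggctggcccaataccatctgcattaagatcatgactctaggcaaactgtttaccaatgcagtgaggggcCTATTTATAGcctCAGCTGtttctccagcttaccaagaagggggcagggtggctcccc
Kbtbd13: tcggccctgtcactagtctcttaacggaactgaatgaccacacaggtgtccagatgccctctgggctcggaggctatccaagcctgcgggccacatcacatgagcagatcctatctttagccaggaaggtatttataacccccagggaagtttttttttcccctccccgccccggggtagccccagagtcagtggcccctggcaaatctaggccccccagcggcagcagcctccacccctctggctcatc
Fbxo40: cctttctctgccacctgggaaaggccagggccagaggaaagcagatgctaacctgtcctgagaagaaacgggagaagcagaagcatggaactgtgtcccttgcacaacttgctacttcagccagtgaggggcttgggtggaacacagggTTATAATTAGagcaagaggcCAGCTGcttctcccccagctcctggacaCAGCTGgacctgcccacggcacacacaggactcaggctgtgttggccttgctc
Klhl33: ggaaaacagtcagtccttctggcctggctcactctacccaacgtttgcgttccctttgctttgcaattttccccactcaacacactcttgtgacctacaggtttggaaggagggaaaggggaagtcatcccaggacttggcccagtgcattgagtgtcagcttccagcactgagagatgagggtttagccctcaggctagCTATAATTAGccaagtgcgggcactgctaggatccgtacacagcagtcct
In Asb18 the MEF2 match began 11 bases before the start and the E-box 37 bases before it. In Asb16 the MEF2 match began at 58 bases and the E-box at 45. In Fbxo40 the MEF2 match at 101 bases was followed by E-boxes at 81 and 53. Klhl33 held a MEF2 match at 50 bases, and Asb10 and Kbtbd13 held none of the 6 motifs in this stretch.

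In control muscle the muscle-enriched adaptors with a window of their own had a higher median level per kb than the other members. Among members whose window overlapped no window of another gene, the median level in LacZ-shRNA was 14.8 CPM per kb for the 14 muscle-enriched genes and 7.54 for the 45 others. All such windows of protein-coding genes had medians of 9.27 CPM per kb with a peak (n = 6237) and 4.86 without (n = 8401), and 95% of those without a peak lay below 8.94. All 14 muscle-enriched genes had a promoter peak, while 12 of the 45 others had none. A window spans every annotated start of its gene, in use or not, and its length differs between genes. The highest member was Klhl38 at 31.4 ± 4.48 CPM per kb (SD, n = 3). Asb10 (25.8 ± 2.50) and Klhl24 (25.8 ± 4.13), whose protein targets keratin 14, followed, with samples that overlapped those of Klhl38. Fbxo31, an F-box protein that targets cyclin D1, stood at 22.9 ± 2.13, Klhl31, a striated muscle Kelch protein, at 21.2 ± 2.57 and Klhl30 at 20.9 ± 0.615, again within their SDs of each other. Asb18 (18.96 ± 2.26), Asb16 (17.7 ± 2.47), Fbxo46 (16.9 ± 2.46) and Kbtbd13 (16.4 ± 3.03) completed the 10 highest, and 7 of the 10 were muscle-enriched. The 14 members with no promoter peak were Klhl1, Klhl3, Klhl4, Klhl6, Klhl13, Klhl14, Klhl32, Klhl35, Asb9, Asb17, Fbxo16, Fbxo39, Fbxo41 and Fbxo43, and none was muscle-enriched. The 12 of them whose window stood alone had a median of 4.85 CPM per kb, close to the median of all windows without a peak.

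**Figure D1:**
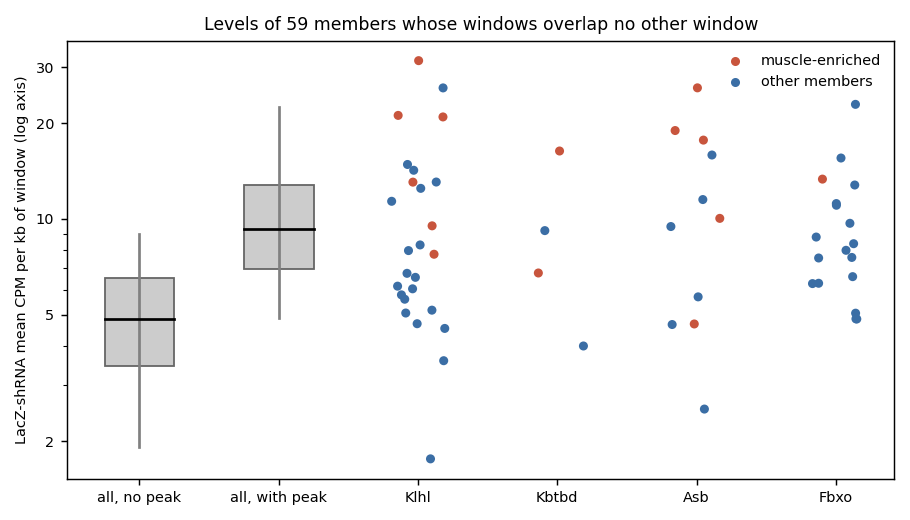
Mean LacZ-shRNA level in CPM per kb of window, log axis, for 59 members whose window overlaps no other. Grey boxes give the quartiles, median line and 5th to 95th percentile of all protein-coding windows without and with a peak, and points are single genes, red for muscle-enriched and blue for other members, spread sideways within each family only for visibility. Klhl38, at 31.4, is the highest point.

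A low window level did not always mark a closed site, since many windows shared in part with a second gene held fewer reads than the peaks inside them. Summed over the 6 samples, all 35 members with a window of their own and a peak wholly inside it had more reads in the window than in the peaks, with a lowest ratio of 1.09. Among 24 members whose window overlapped that of another gene, 17 had fewer. By default featureCounts leaves out reads that fall in more than a single feature. Kbtbd3, which shares its start region with Aasdhppt, had 79 reads in the window and 2549 in the peaks inside it. Klhl9, which with Klhl13 removes Aurora B from mitotic chromosomes, had 93 reads in the window and 1167 in the peaks inside it (partner Gm26566). Kbtbd8, a Cul3 adaptor of neural crest, had 139 reads in the window and 1362 in the peaks inside it (partner Kbtbd8os), and Asb3 had 322 reads in the window and 1540 in the peaks inside it (partners Erlec1 and Gpr75). Fbxo2, which binds glycoproteins, shared a single promoter peak of 1541 reads with its neighbour Fbxo44, and its own window held 61. These include 4 of the 5 lowest windows, Fbxo2 (0.600 ± 0.221 CPM per kb, SD, n = 3), Kbtbd3 (0.947 ± 0.144), Asb3 (1.01 ± 0.204) and Kbtbd8 (1.12 ± 0.607). Kbtbd3, Asb3 and Kbtbd8 differed by less than the larger SD of each pair, and Fbxo2 lay below Kbtbd3 and Asb3 by more than either SD. The fifth, Klhl13 (1.20 ± 0.164), overlapped Gm14523 and had no promoter peak.

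**Figure D2:**
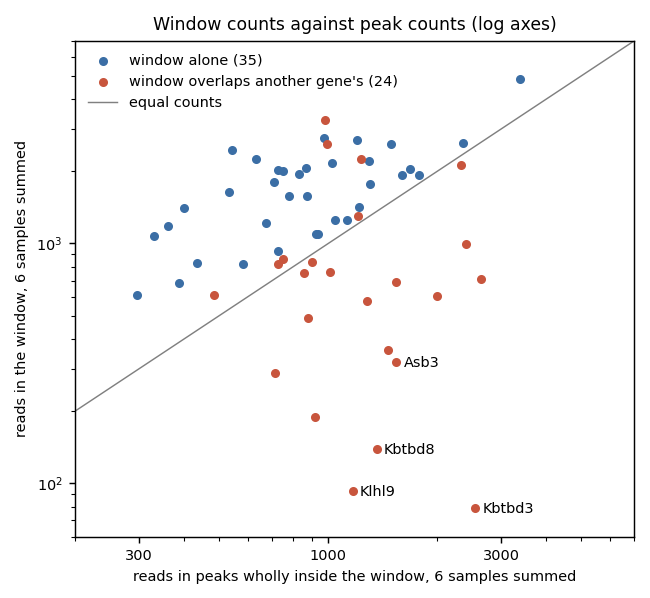
Reads in the window against reads in peaks wholly inside it, both summed over the 6 samples on log axes, for 59 members with such a peak. The 35 windows that stand alone (blue) lie above the line of equal counts, and 17 of the 24 overlapping windows (red) lie below it.

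The strongest promoter peak of each gene gave a measure that does not rest on the windows, and the order changed with it. Fbxo31 led at 60.1 ± 3.54 CPM per kb of peak in LacZ-shRNA (SD, n = 3), followed by Kbtbd3 at 57.6 ± 4.80 and Asb7 at 56.4 ± 2.83, each within an SD of its neighbour. The peaks of both Kbtbd3 and Asb7 lay at starts shared with another gene. Klhl38 came next at 49.5 ± 3.44, and only 3 of the 10 highest windows, Fbxo31, Klhl38 and Klhl24, were among the 10 highest peaks. The median was 30.05 CPM per kb of peak over the 19 muscle-enriched genes and 25.6 over 60 others. These promoter peaks had a median width of 1260 bp over the 19, 1168.5 bp over the 60 others and 1182 bp over all 79. The widest of muscle-enriched members spanned 4550 bp at Asb2, 4068 bp at Klhl40 and 3250 bp at Asb10. Among the others the widest spanned 3382 bp, at Klhl21.

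No window of the 93 adaptors was called between Yap-shRNA and LacZ-shRNA at an adjusted p under 0.05 in edgeR, where 11 of 49366 windows, 0.0223%, were called in all. The lowest adjusted p over the members was 0.946. DESeq2 and limma voom also called none. At an unadjusted p under 0.05, 4 members passed, 1 higher and 3 lower, or 4.30% against 4.9% of all windows. Windows lower at that threshold made up 3.01% of all. The split turned with library size alone, which gave 5 higher and 2 lower and moved the median of all windows to +0.046. The members' log2 fold changes, Yap-shRNA over LacZ-shRNA, ran from −0.58 to +0.54 with a median of −0.033, beside −0.014 over all windows. The 95% interval lay within a 2-fold change in either direction for 90 of 93. The values of the groups did not overlap, every Yap-shRNA sample being on the same side of every LacZ-shRNA sample, in 6 members (6.45%), against 10.1% of all windows.

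**Figure D3:**
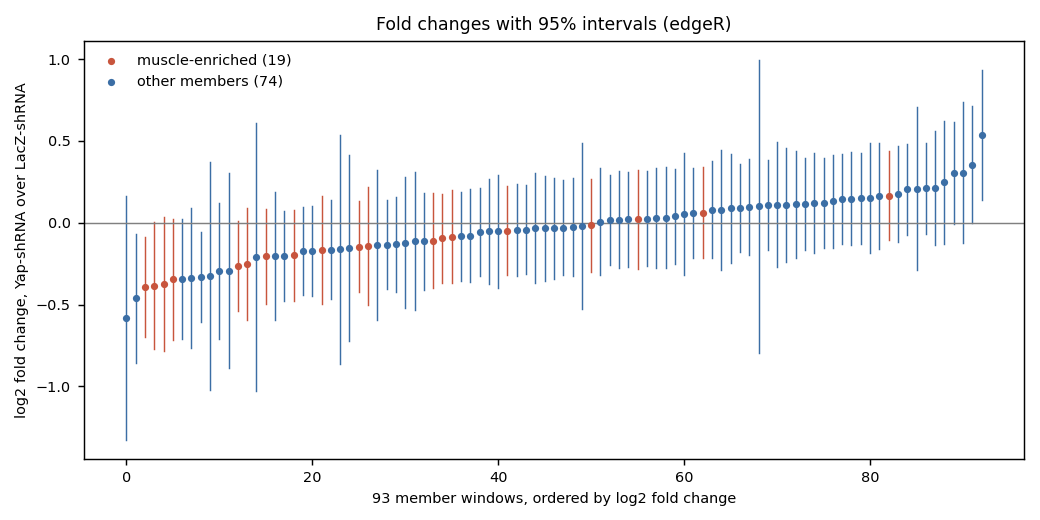
Log2 fold change of each of the 93 member windows, Yap-shRNA over LacZ-shRNA, in ascending order, with 95% intervals from the edgeR fit (lines). Red marks the 19 muscle-enriched members, 16 of which lie below 0, and blue the 74 others.

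Within the muscle-enriched list, 16 of 19 windows had a log2 fold change below 0, with a median of −0.15, against 35 of 74 others and a median of +0.018. The lowest values were those of Asb15 (−0.39), Asb12 (−0.38) and Klhl40 (−0.38). Their windows were shared with another gene over 46.7%, 47.1% and 74.1% of their length. Among muscle-enriched windows that stood alone, the lowest was Asb11 (−0.35). Only Asb15 passed the unadjusted threshold, and in none of the 19 were the groups apart. The number lower at that threshold was 9 without LacZ-shRNA replicate 1, 3 without LacZ-shRNA replicate 2, 4 without Yap-shRNA replicate 1, and 0 when replicate 3 of either group was left out, and it was 1 or 2 under the other settings run, with 0 higher under every setting. Without LacZ-shRNA replicate 1 the calls over all windows at an adjusted p under 0.05 also rose, from 11 to 157. With library size alone, 14 of 19 were below 0 with a median of −0.079, beside +0.046 over all windows. The median moved with single libraries, to −0.27 without LacZ-shRNA replicate 1, −0.095 without LacZ-shRNA replicate 2, −0.080 without LacZ-shRNA replicate 3 and −0.25 without Yap-shRNA replicate 1. The summed level of the 19 windows was 662, 807 and 827 CPM in LacZ-shRNA replicates 1 to 3 and 749, 659 and 704 CPM in Yap-shRNA replicates 1 to 3. LacZ-shRNA replicate 1 was thus as low as the lower Yap-shRNA samples, and it was the lowest of its group for 16 of the 19. The summed level of the 8 muscle fibre markers was 1049, 1505 and 1350 CPM in LacZ-shRNA and 1317, 1148 and 1289 CPM in Yap-shRNA, also lowest in LacZ-shRNA replicate 1. The reads in peaks per 100 reads in windows were 70.4, 77.8 and 76.6 in LacZ-shRNA and 68.8, 64.9 and 68.2 in Yap-shRNA. This ratio of peak reads to start-window reads is not the share of all reads that lie in peaks. It was lower in every Yap-shRNA sample than in any LacZ-shRNA sample, and in LacZ-shRNA replicate 1 lower than in the other LacZ-shRNA samples. Its part in the direction of these windows was not tested.

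**Figure D4:**
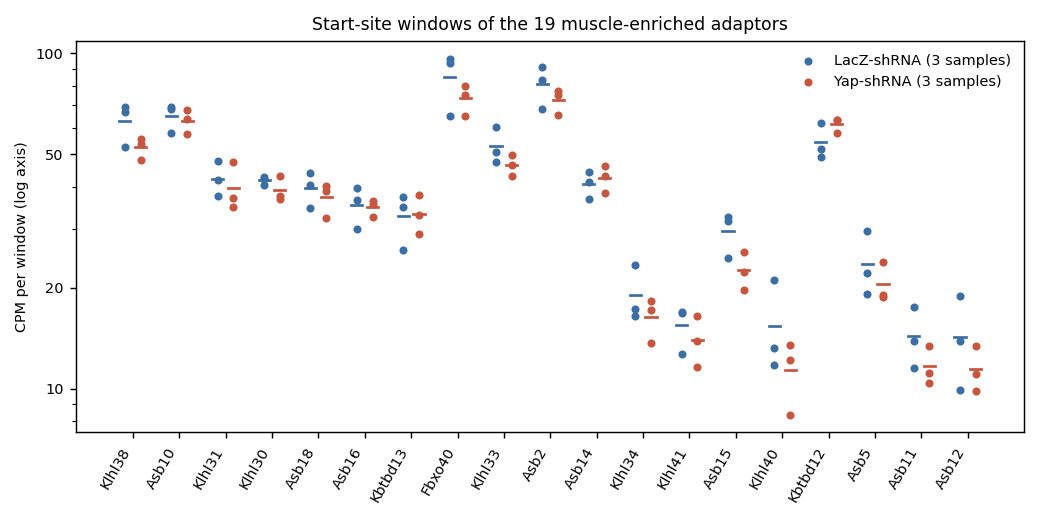
CPM per window, log axis, of the 19 muscle-enriched members in each LacZ-shRNA (blue) and Yap-shRNA (red) sample, ordered by LacZ-shRNA level per kb, with short lines for the group means. The groups overlap in every gene.

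Positions of genes are those of GRCm38. Among the muscle-enriched Kelch genes, Klhl38 (ENSMUSG00000022357, chr15:58314573-58324169) gave 52.6, 66.97 and 69.2 CPM in LacZ-shRNA and 55.4, 48.2 and 53.5 CPM in Yap-shRNA. LacZ-shRNA replicates 2 and 3 stood above the rest and replicate 1 lay among the Yap-shRNA samples (log2 fold change −0.26, SE 0.14, n = 3 per group, edgeR adjusted p = 0.946). Klhl40 (ENSMUSG00000074001, chr9:121777607-121783818), whose protein stabilises nebulin and Lmod3 in the thin filament, gave 11.8, 21.1 and 13.2 CPM in LacZ-shRNA and 13.5, 8.38 and 12.2 CPM in Yap-shRNA. Its groups overlapped (log2 fold change −0.38, SE 0.20, n = 3 per group, edgeR adjusted p = 0.946), its window overlapped that of Gm47108, and its promoter peak had a log2 fold change of +0.032 (adjusted p = 0.981). Klhl41 (ENSMUSG00000075307, chr2:69670120-69684230), a close relative that also protects nebulin, gave 12.7, 16.98 and 16.9 CPM in LacZ-shRNA and 16.5, 13.9 and 11.6 CPM in Yap-shRNA, again overlapping (log2 fold change −0.14, SE 0.18, n = 3 per group, edgeR adjusted p = 0.963). Klhl31 (ENSMUSG00000044938, chr9:77636500-77660127), which binds filamin C, gave 41.8, 37.5 and 47.7 CPM in LacZ-shRNA and 47.4, 36.96 and 34.8 CPM in Yap-shRNA (log2 fold change −0.11, SE 0.14, n = 3 per group, edgeR adjusted p = 0.965). The log2 fold changes were −0.094 for Klhl30, −0.20 for Klhl33 and −0.25 for Klhl34. Kbtbd13, whose protein binds actin filaments, stood at +0.022 and Kbtbd12 at +0.17. Together with Asb14 (+0.062), these Kbtbd genes were the 3 muscle-enriched members with a value above 0. Single libraries moved several of these values. Without LacZ-shRNA replicate 3 the log2 fold change was −0.039 for Klhl34, −0.080 for Klhl33 and −0.0066 for Klhl31, without LacZ-shRNA replicate 2 it was −0.15 for Klhl40, and without Yap-shRNA replicate 3 it was −0.028 for Klhl41. Without LacZ-shRNA replicate 1 it was −0.39 for Klhl38, −0.37 for Klhl34 and −0.13 for Kbtbd13.

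Asb15 (ENSMUSG00000029685, chr6:24528144-24573164) gave the smallest p of the muscle-enriched list. Its window held 24.6, 31.7 and 32.6 CPM in LacZ-shRNA and 25.6, 22.3 and 19.7 CPM in Yap-shRNA. The highest Yap-shRNA value lay just above the lowest LacZ-shRNA value, so the groups overlapped (log2 fold change −0.39, SE 0.15, n = 3 per group, edgeR adjusted p = 0.946, unadjusted p = 0.0133). That window overlapped the window of Ndufa5, a subunit of respiratory complex I, and the strongest promoter peak, which lay at starts of both, had a log2 fold change of −0.036 (adjusted p = 0.978). Another Asb15 promoter peak, at chr6:24554903-24556292, lay near no start of another gene. It held 33.1, 36.5 and 38.3 CPM in LacZ-shRNA and 32.0, 29.5 and 26.6 CPM in Yap-shRNA. Every Yap-shRNA sample was below every LacZ-shRNA sample there (log2 fold change −0.30, SE 0.14, n = 3 per group, edgeR adjusted p = 0.490). Asb2 (ENSMUSG00000021200, chr12:103321142-103356001), which directs filamins to the proteasome and is known to restrain muscle size, gave 68.2, 91.00 and 83.2 CPM in LacZ-shRNA and 65.5, 75.2 and 77.4 CPM in Yap-shRNA (log2 fold change −0.15, SE 0.14, n = 3 per group, edgeR adjusted p = 0.951). Fbxo40 (ENSMUSG00000047746, chr16:36963460-36990467) gave 64.9, 96.4 and 93.3 CPM in LacZ-shRNA and 80.05, 64.9 and 75.3 CPM in Yap-shRNA, with LacZ-shRNA replicate 1 level with Yap-shRNA replicate 2 (log2 fold change −0.21, SE 0.14, n = 3 per group, edgeR adjusted p = 0.949). Of the other Asb genes, Asb5 stood at −0.17, Asb10 at −0.049, Asb11 at −0.35, Asb12 at −0.38, Asb16 at −0.015 and Asb18 at −0.085 on the log2 scale. Without LacZ-shRNA replicate 3 the log2 fold change was −0.097 for Asb12 and −0.15 for Asb11, and without LacZ-shRNA replicate 2 it was −0.54 for Asb12, −0.019 for Asb5, −0.062 for Asb2 and −0.12 for Fbxo40. The Asb12 window held a run of 16 G or C bases and overlapped that of Pfn5. The Asb5 window overlapped that of Spcs3, and the Asb2 window that of Gm15523.

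Outside muscle-enriched genes, 3 windows passed an unadjusted p under 0.05. Fbxo47 (ENSMUSG00000070336, chr11:97853826-97884154), known for its role in meiosis, gave 10.1, 12.5 and 7.97 CPM in LacZ-shRNA and 13.5, 11.9 and 17.3 CPM in Yap-shRNA. LacZ-shRNA replicate 2 lay above Yap-shRNA replicate 2 (log2 fold change +0.54, SE 0.20, n = 3 per group, edgeR adjusted p = 0.946, unadjusted p = 0.00913). Its window overlapped that of Gm11630, and its promoter peak, which held more reads, had a log2 fold change of −0.010, with means of 38.1 CPM in LacZ-shRNA and 38.4 CPM in Yap-shRNA. Fbxo9 (ENSMUSG00000001366, chr9:78081499-78109065), which targets the Tel2 and Tti1 regulators of mTOR signalling, gave 48.1, 60.2 and 50.7 CPM in LacZ-shRNA and 42.6, 40.4 and 42.3 CPM in Yap-shRNA. Every Yap-shRNA sample was below every LacZ-shRNA sample (log2 fold change −0.33, SE 0.13, n = 3 per group, edgeR adjusted p = 0.946, unadjusted p = 0.0183), and the promoter peak it shares with Ick moved by −0.34. Klhl14, a Kelch gene of B cells with no promoter peak here, gave 13.4, 12.5 and 9.91 CPM in LacZ-shRNA and 7.94, 8.47 and 9.16 CPM in Yap-shRNA, also with the groups apart (log2 fold change −0.46, SE 0.20, n = 3 per group, edgeR adjusted p = 0.946, unadjusted p = 0.0233). The Klhl14 window was shared with that of 4930426D05Rik over 50% of its length. The other windows whose groups did not overlap, named here after their values were seen, were Fbxo5, Klhl9 and Klhl13 lower and Klhl6 higher in Yap-shRNA. Over all members, 1 was higher and 13 were lower at the unadjusted threshold without LacZ-shRNA replicate 1, 4 and 6 without LacZ-shRNA replicate 2, 4 and 2 without LacZ-shRNA replicate 3, 1 and 5 without Yap-shRNA replicate 1, 1 and 1 without Yap-shRNA replicate 2, and 0 and 3 without Yap-shRNA replicate 3. The share of all windows at that threshold is not given for these fits, so the counts are not particular to the members. Without LacZ-shRNA replicate 1 the whole set moved, with 157 windows called at an adjusted p under 0.05, beside 11 in the full fit.

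Peaks reached elements that the start windows leave out. Within 10 kb of the gene spans lay 175 peaks of 85 members, 85 at promoters, 49 elsewhere within genes and 41 in the flanks. None was called by edgeR at an adjusted p under 0.05, where 0.618% of 36097 peaks were, and DESeq2 and limma voom called none either. An unadjusted p under 0.05 was reached by 15, 5 higher and 10 lower, or 8.57% against 8.9% of all peaks. The split turned with library size alone, which gave 20 higher and 0 lower and moved the median of all peaks to +0.14. DESeq2 gave 2 higher and 6 lower, a fit with the replicate number as a block gave 3 and 6, and leaving out single samples gave 3 and 16 without LacZ-shRNA replicate 1, 5 and 6 without LacZ-shRNA replicate 2, 7 and 5 without LacZ-shRNA replicate 3, 5 and 13 without Yap-shRNA replicate 1, 2 and 4 without Yap-shRNA replicate 2, and 2 and 6 without Yap-shRNA replicate 3. The share of all peaks at that threshold is not given for these alternatives. With all samples in place, the groups did not overlap in 37 (21.1%), against 13.3% of all peaks. The median log2 fold change was −0.0067, beside −0.0026 over all peaks, and the 45 peaks of muscle-enriched members divided into 22 above and 23 below 0 with a median of −0.0029. The strongest promoter peak of each gene had a median of −0.079 over the 19 muscle-enriched members and +0.0044 over the 60 others. The 95% interval lay within a 2-fold change for 171 of 175.

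The smallest p belonged to a peak in an intron of Klhl31, at chr9:77652425-77653366 in GRCm38 and 15925 bp from the start. It held 14.5, 17.8 and 15.2 CPM in LacZ-shRNA and 24.5, 20.8 and 23.2 CPM in Yap-shRNA. Every Yap-shRNA sample was above every LacZ-shRNA sample (log2 fold change +0.55, SE 0.16, n = 3 per group, edgeR adjusted p = 0.138). With library size in place of TMM, which moved the median of all peaks to +0.14, its log2 fold change was +0.68 and it was called (adjusted p = 0.0354, with values from 0.0354 to 0.41 over the alternatives). The window at the Klhl31 start had a log2 fold change of −0.11. A peak in an intron of Klhl25, whose protein targets the translational repressor 4E-BP1, at chr7:75859624-75860439, held 37.2, 36.9 and 36.7 CPM in LacZ-shRNA and 28.6, 28.9 and 27.8 CPM in Yap-shRNA. Its groups were apart on the low side and varied little within themselves (log2 fold change −0.38, SE 0.13, n = 3 per group, edgeR adjusted p = 0.278).

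Of the remaining peaks among the 8 with the smallest p-values, 3 lay at promoters and were lower in Yap-shRNA. The Fbxo9 peak at chr9:78107683-78109439 held 84.3, 75.2 and 81.3 CPM in LacZ-shRNA and 68.9, 64.1 and 58.1 CPM in Yap-shRNA (log2 fold change −0.34, SE 0.12, n = 3 per group, edgeR adjusted p = 0.307). The Klhl9 peak at chr4:88721857-88722892 held 37.5, 39.5 and 43.2 CPM in LacZ-shRNA and 34.8, 31.7 and 28.8 CPM in Yap-shRNA (log2 fold change −0.34, SE 0.13, n = 3 per group, edgeR adjusted p = 0.348). The Klhl33 peak at chr14:50895479-50897918, which held a run of 16 G or C bases, gave 70.1, 73.03 and 79.4 CPM in LacZ-shRNA and 64.5, 57.4 and 58.9 CPM in Yap-shRNA (log2 fold change −0.31, SE 0.12, n = 3 per group, edgeR adjusted p = 0.380). In each of the 3 every Yap-shRNA value was below every LacZ-shRNA value. The promoter peak of Fbxo42, an F-box protein that binds p53, at chr4:141147478-141148659, was the higher case, with 26.8, 19.96 and 29.5 CPM in LacZ-shRNA and 30.8, 37.8 and 34.9 CPM in Yap-shRNA and no overlap (log2 fold change +0.39, SE 0.14, n = 3 per group, edgeR adjusted p = 0.314). In introns, a peak of Asb15 at chr6:24540561-24541243 held 17.8, 19.96 and 19.3 CPM in LacZ-shRNA and 15.1, 11.8 and 14.2 CPM in Yap-shRNA (log2 fold change −0.47, SE 0.18, n = 3 per group, edgeR adjusted p = 0.324), and a peak of Fbxo31 at chr8:121561615-121563706 held 99.7, 117 and 107 CPM in LacZ-shRNA and 87.4, 84.9 and 89.8 CPM in Yap-shRNA (log2 fold change −0.30, SE 0.13, n = 3 per group, edgeR adjusted p = 0.413). Both were lower in every Yap-shRNA sample. The Asb15 peak lies 12417 bp from the nearest Asb15 start and so outside the window that gave Asb15 its small p. It was picked by its own p-value, so it is not separate support for that window.

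**Figure D5:**
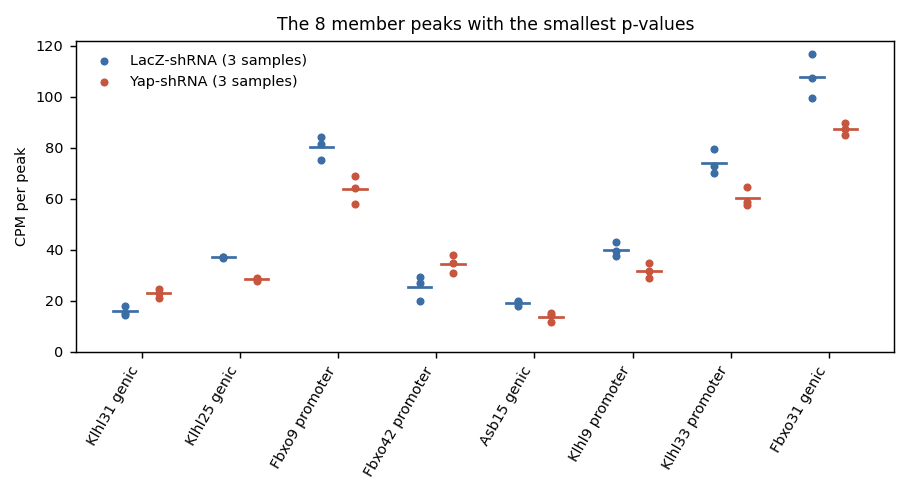
CPM per peak, axis from 0, of the 8 member peaks within 10 kb with the smallest p-values, in each LacZ-shRNA (blue) and Yap-shRNA (red) sample, with short lines for the group means. The groups are apart in all 8, which the choice by p-value favours, so this is not separate support. At Klhl31 and Fbxo42, 2 of the 8 are higher in Yap-shRNA.

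With the flanks widened to 50 kb, 2 of 369 peaks were called by edgeR at an adjusted p under 0.05, beside 223 of all 36097 peaks (0.618%). The first, at chr12:103282954-103284135, lies 51449 bp from the nearest Asb2 start, between Prima1 and Fam181a. It held 36.1, 40.8 and 34.9 CPM in LacZ-shRNA and 25.8, 25.6 and 22.00 CPM in Yap-shRNA, lower in every Yap-shRNA sample (log2 fold change −0.59, SE 0.14, n = 3 per group, edgeR adjusted p = 0.0262). That call was lost when any of LacZ-shRNA replicates 1 and 2 or Yap-shRNA replicates 1, 2 and 3 was left out, with adjusted p-values of 0.0506 to 0.139, and it was also lost in DESeq2 (adjusted p = 0.0612) and with library size alone (edgeR adjusted p = 0.159). Over all alternatives the adjusted p ran from 0.00882 to 0.159. The second, at chr2:69873100-69873708, lies 48746 bp from the nearest Klhl23 start, within Mettl5 and at starts of Mettl5 and Gm13625, and holds a run of 21 G or C bases. It held 450.2, 534 and 312 CPM in LacZ-shRNA and 210.2, 203 and 292 CPM in Yap-shRNA (log2 fold change −0.87, SE 0.18, n = 3 per group, edgeR adjusted p = 0.00581), and the call was lost without LacZ-shRNA replicate 2, Yap-shRNA replicate 1 or Yap-shRNA replicate 2, with adjusted p-values of 0.0938 to 0.152. It was also lost in DESeq2 (adjusted p = 0.124) and with a mean count of at least 50 (edgeR adjusted p = 0.0596), and over all alternatives the adjusted p ran from 3.71e-05 to 0.152. Distance alone links these peaks to Asb2 and Klhl23.

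The machinery that the adaptors join showed as little. Of 34 genes of the cullin-RING core (cullins, RING subunits, Skp1a and elongins, the Nedd8 pathway that activates cullins, Cand exchange factors and the COP9 signalosome), 33 had a window (all but Cops2), and none was called or reached an unadjusted p under 0.05. Of all windows, 0.0223% were called and 4.9% reached that unadjusted threshold, so few or none would be counted in lists of this size. The log2 fold changes of the core ran from −0.24 to +0.27 with a median of +0.031. The 41 F-box genes of the Fbxl and Fbxw classes, which read substrates with leucine-rich repeats and WD40 propellers, gave a median of +0.0090, with none called and none at an unadjusted p under 0.05. Their log2 fold changes spread more widely, from −0.25 to +0.64.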

How the data were processed

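ATAC-seq of PCM1+ myonuclei was used from 3 LacZ-shRNA and 3 Yap-shRNA pools. The deposited tables hold raw read counts per peak and per start-site window, which the authors made with BWA 0.7.17, SAMtools 1.8 (duplicates removed), MACS 1.4.2-1 (peaks found in at least 2 samples) and featureCounts 1.5.0 on GRCm38, without rows of mean count under 10. Windows were rebuilt from GENCODE M21. Whole tables were tested with edgeR 4.0.16 (quasi-likelihood, TMM, no covariate, Benjamini-Hochberg adjustment). DESeq2 1.42.0, limma 3.58.1 voom, other scalings, filters and left-out samples were alternatives. The fit was tested on simulated data. Peaks were linked to a member within 10 kb of its span. The members and lists were chosen with earlier results of these data known. Named were all muscle-enriched members, members with an unadjusted p under 0.05, the 10 highest and 5 lowest levels per kb, the 8 member peaks of smallest p and list genes with an unadjusted p under 0.05. The list of substrates and partners is not reported here. The Klhl31 promoter was left out of the printed sequences because 232 of its 250 bases are annotated exon. Replicates differed by 1.95 to 5.39 times counting noise (chi-square per degree of freedom), so none was counted as a repeat.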

Additional observations from a re-analysis of the deposited data

How the results depend on the processing

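Under every setting run, 0 of the member, muscle-enriched, cullin-RING core, and Fbxl and Fbxw windows were called at an adjusted p under 0.05. Member peaks rose from 0 to 1 call with library size alone and to 2 calls of 369 with 50 kb flanks, where 0.618% of all peaks were called. With the replicate number as a block (replicate block), 0 member windows and 0 member peaks were called, and the median over member windows was −0.015. Same-numbered samples did not deviate together in all 3 pairs (correlations of 0.191, −0.157 and 0.1 over windows), and the labels do not tie a number to shared animals. Without each sample in turn the median log2 fold change over member windows ran from −0.11 to +0.0054, and with library size alone it was +0.027, where the median of all windows was +0.046. With each sample left out in turn the log2 fold change ran from −0.13 to +0.015 for Asb10, from −0.0042 to +0.13 for Asb14, from −0.12 to +0.057 for Asb16, from −0.17 to +0.0061 for Asb18 and from −0.13 to +0.16 for Kbtbd13. With library size alone the log2 fold change was +0.013 for Asb10 and +0.048 for Asb16, where the fit with TMM gave values below 0. The order of levels depended on the unit: 4 of the 10 highest members per kb were among the 10 highest per window, and 3 among the 10 highest by promoter peak, a measure chosen after seeing the data. DESeq2 gave no adjusted p for 40 members. Depth limits the windows with fewest reads: Fbxo2, Kbtbd3, Klhl9, Kbtbd8 and Klhl4, at 61 to 160 reads over the 6 samples, had SEs of 0.34 to 0.44.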
